A study of Cavia porcellus with 72 samples.

Results

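Genes of the cholesterol synthesis pathway were followed in the hippocampus of juvenile female guinea pigs over 3 generations. They were chosen by symbol: AACS, HMGCS1, IDI1, SQLE, LSS, DHCR7 and SREBF2. Of these 7 genes, 6 had counts in the tables of all 3 generations and passed the filter on low counts in each, among 11444 genes shared by the tables, of which 11159 passed the filter in every generation. IDI1, an isomerase of the early pathway, was not analysed here. The animals were Dunkin-Hartley guinea pigs of the paternal line, killed on postnatal day 40, and RNA came from the right hippocampus. In late pregnancy the F0 ancestors had received either saline (control) or 3 courses of betamethasone, 1 mg/kg, a glucocorticoid made synthetically (sGC) and used before preterm birth. F1 animals were exposed in the womb, while F2 and F3 animals descended from F1 and F2 fathers and were not treated themselves. In F1, 6 control and 5 sGC animals were sequenced, in F2 6 and 6, and in F3 6 and 7, and the offspring had separate mothers.

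Cells build cholesterol from acetyl units. HMGCS1 joins them to HMG-CoA, from which mevalonate is made. Mevalonate is built up to squalene, which SQLE oxidises and LSS folds into lanosterol, the first sterol, and DHCR7 carries out the last reduction to cholesterol. SREBF2 encodes SREBP2, the membrane-bound transcription factor that is released when sterols run low and drives the genes of this pathway. AACS stands at the side of the pathway, since it activates the ketone body acetoacetate for lipid synthesis in the cytosol. The brain makes nearly all of its own cholesterol, because lipoproteins do not cross the blood-brain barrier, and much of it goes into myelin during postnatal growth.

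Library totals ranged from 13507449 to 19767033 reads counted on genes. The 6 genes had between 363 counts (DHCR7) and 12168 counts (HMGCS1) in a library, so that counting error alone was at most 5.25% of a value. Levels are given as CPM, counts scaled to a library of 1e+06 reads after TMM adjustment of library sizes, and since CPM does not account for transcript length, the levels of the 6 genes were not compared with each other. For the tissue label, 7 of 8 listed markers of hippocampal neurons were in the tables, with a summed level of 6809 to 10898 CPM. The sums were 84.5 to 117 CPM for 5 striatal and 46.8 to 72.6 CPM for 3 thalamic markers, which are likewise not scaled for length. In F1 the thalamic sums of control (46.8 to 59.5 CPM) and sGC animals (59.9 to 72.6 CPM) did not overlap. Of these 3 markers 2 were higher and 1 lower in F1 sGC animals, with fitted log2 fold changes of -0.05 to 0.37. Only RORA had an adjusted p under 0.05 by edgeR. How many of all genes were separated as fully was not counted. All F2 libraries stood apart from those of F1 and F3, at 35.7 to 38.5 on a first principal component that held 69.3% of the variance, where the other libraries lay between -20.6 and -16.9. Libraries numbered 32 to 36 in the labels were all from sGC animals, so that their number and the treatment cannot be told apart in them.

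The first question was whether ancestral sGC altered these genes. None of the 6 genes passed the threshold of an adjusted p under 0.05 in any generation by edgeR's quasi-likelihood test, and none did so with edgeR's likelihood ratio test or DESeq2. In the same fits 2.08% of all genes tested passed in F1, 0% in F2 and 5.04% in F3. In F2 the likelihood ratio test and DESeq2 passed 6 and 12 of all genes. Unadjusted p-values under 0.05 were found for 1 of the 6 genes in F1, 1 in F2 and 2 in F3, where 19.6%, 6.64% and 21.1% of all genes had one (2230, 758 and 2397 genes). Fitted log2 fold changes of sGC against control lay between -0.17 and -0.00145 in F1, where all 6 were below 0, with a median of -0.06 beside -0.0055 over all genes. In F2 they ran from -0.06 to 0.14 (median 0.02, 5 of 6 above 0), and in F3 from -0.13 to 0.02 (median -0.00165, 3 of 6 above 0).

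**Figure D1:**
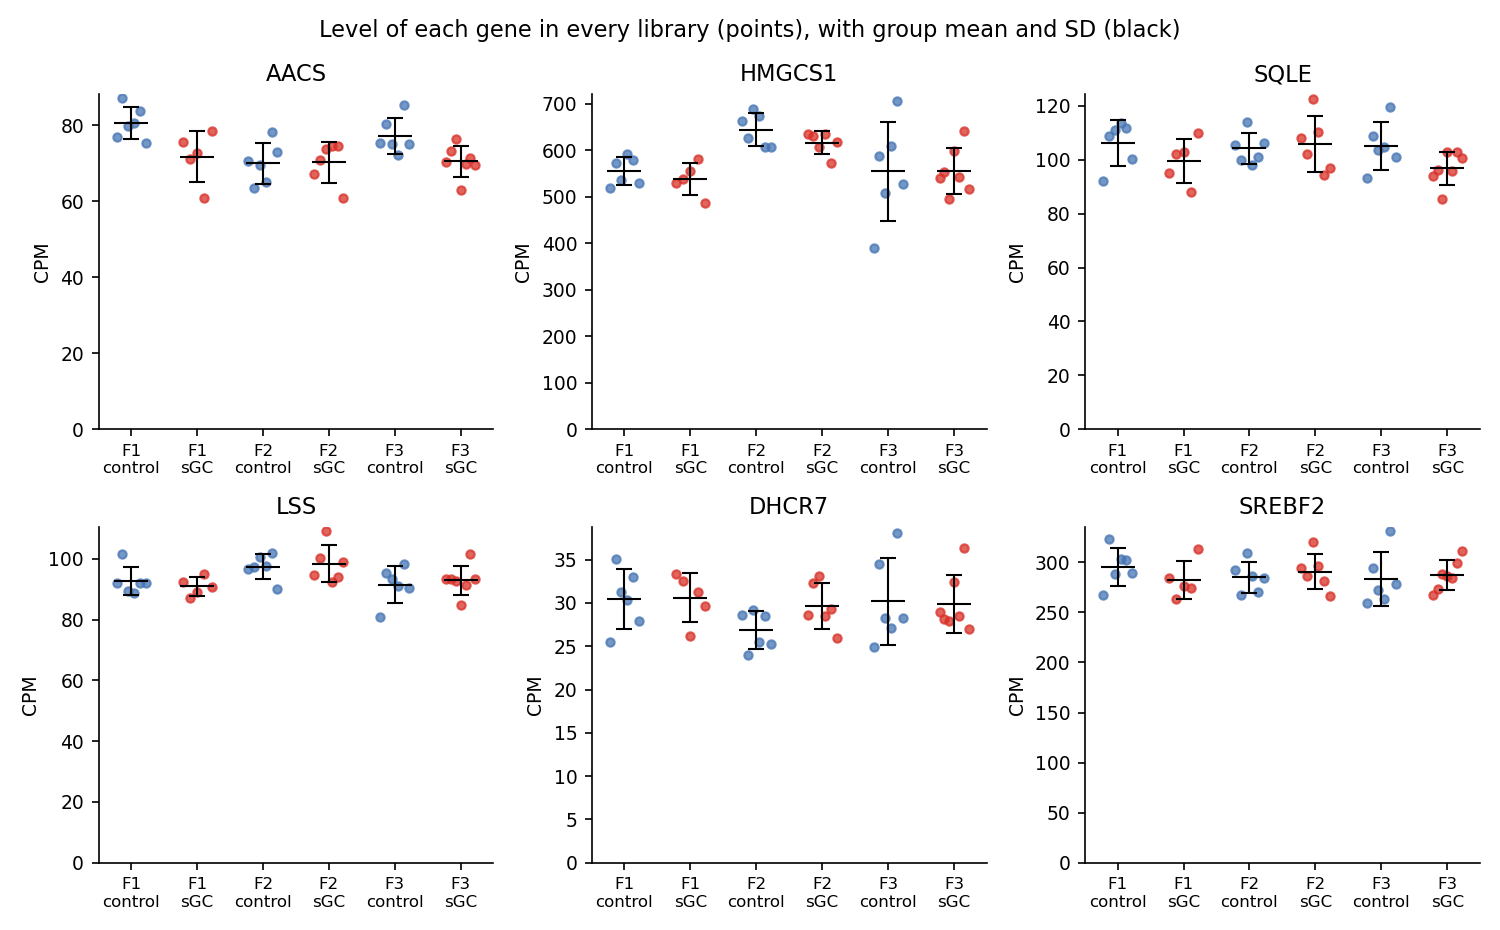
Level in CPM (vertical axis, from 0) of AACS, HMGCS1, SQLE, LSS, DHCR7 and SREBF2 in each of 36 libraries, grouped along the horizontal axis by generation and treatment (control blue, sGC red), with the group mean and SD in black. Control and sGC points overlap in every generation for every gene, HMGCS1 sits higher in both F2 groups, and the F3 controls of HMGCS1 spread from 391 to 706 CPM.

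AACS had the lowest adjusted p-values of the 6 genes in F1 and F3. Its level in F1 controls ran from 75.4 through a median of 80.2 to 87.0 CPM, and the 5 F1 sGC libraries held 75.6, 71.1, 72.5, 60.7 and 78.5 CPM. In F3 it ran from 72.0 through 75.2 to 85.2 CPM in controls and from 62.8 through 70.3 to 76.2 CPM in sGC animals. The sGC groups were thus centred lower in both generations, but they overlapped the controls: 2 of the 5 F1 sGC libraries lay inside the control range. In F1, with 80.6 ± 4.28 CPM in 6 controls and 71.7 ± 6.76 CPM in 5 sGC animals (mean ± SD), the log2 fold change was -0.17 (SE 0.0612, unadjusted p = 0.0145, adjusted p = 0.146 by edgeR). In F3, with 77.1 ± 4.78 CPM in 6 controls and 70.5 ± 4.14 CPM in 7 sGC animals, it was -0.13 (SE 0.0464, unadjusted p = 0.0142, adjusted p = 0.125 by edgeR). F2 levels were much the same in both groups, at 69.9 ± 5.35 CPM in controls and 70.3 ± 5.43 CPM in sGC animals (SD, n = 6 each), and the fitted log2 fold change was 0.00822 (adjusted p = 0.985). The lowest value in F1, 60.7 CPM, came from sGC replicate 4, one of the libraries numbered 32 to 36.

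Unlike AACS, some markers of particular cell types passed the threshold between control and sGC animals in F1 or F3. All 9 astrocyte markers had log2 fold changes above 0 in F1 and in F3, with 0 and 3 of them past the threshold. Their summed level was 9814 to 12738 CPM in F1 controls and 11026 to 17657 CPM in F1 sGC animals. In F3 the ranges did not overlap, with 10787 to 11851 CPM in controls and 12089 to 13487 CPM in sGC animals, and in F2 they were 11626 to 13177 and 11589 to 13807 CPM. Over the 36 libraries, after group means were removed, the mean log2 level of the astrocyte markers and AACS had a Pearson r of -0.446 (a description, since both are shares of the same library). In F1 all 8 meningeal fibroblast markers were below 0 on the log2 scale and 2 passed, with sums of 105 to 295 CPM in controls and 71.0 to 145.7 CPM in sGC animals. In F3, where AACS was also centred lower, all 8 were above 0 and 0 passed. Of 5 interneuron markers, 4 were below 0 in F1 and 0 passed, and in F3 all 5 were below 0 and 2 passed. The part of these signals in the AACS values was not tested, and in RNA from whole tissue fewer cells of a type and less RNA per cell cannot be told apart.

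HMGCS1, the synthase of the early pathway, had overlapping levels in control and sGC animals. In F1 controls its level ran from 519 through a median of 555 to 593 CPM, and the 5 F1 sGC libraries held 529, 539, 555, 581 and 486 CPM. F2 controls ran from 607 through 644 to 688 CPM, and F2 sGC animals from 572 through 624 to 635 CPM. F3 controls spread most, from 391 through 557 to 706 CPM, and enclosed the F3 sGC range of 496 through 543 to 642 CPM. None of the 3 comparisons passed, and the log2 fold changes were -0.05 ± 0.0531 (SE) in F1, -0.06 ± 0.0373 in F2 and 0.00449 ± 0.0987 in F3, with adjusted p-values of 0.656, 0.773 and 0.985. The F3 value had the widest error of all, since control replicates 1 and 5 held the lowest and the highest HMGCS1 level of the 36 libraries.

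SQLE, the epoxidase that opens the sterol branch, had 106 ± 8.39 CPM in F1 controls and 99.6 ± 8.22 CPM in F1 sGC animals (SD, n = 6 and 5). In F3 the means were 105 ± 8.80 and 96.8 ± 6.15 CPM in 6 and 7 animals, and the fitted log2 fold change was -0.12 (SE 0.0533, unadjusted p = 0.0454, adjusted p = 0.227 by edgeR). F3 controls ran from 93.1 through 104 to 120 CPM and F3 sGC animals from 85.4 through 96.3 to 103 CPM. The highest sGC animal was therefore below the median control, but the ranges overlapped. F2 means were 104 ± 5.86 and 106 ± 10.3 CPM (SD, n = 6 each).

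LSS, the cyclase that makes lanosterol, had standard errors of 0.0416, 0.0414 and 0.0455 in F1, F2 and F3 on the log2 scale. Its fold changes were -0.03, 0.01 and 0.02, with adjusted p-values of 0.724, 0.960 and 0.809. Group means lay between 90.9 and 98.3 CPM, and both F2 groups, at 97.3 ± 4.09 CPM in controls and 98.3 ± 6.08 CPM in sGC animals, were above the 4 others. One F1 control library, replicate 2, stood off from its group at 101.5 CPM.

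DHCR7, the last reductase, was the only one of the 6 with an unadjusted p under 0.05 in F2. It ran from 24.01 through 26.99 to 29.2 CPM in F2 controls and from 26.004 through 28.97 to 33.1 CPM in F2 sGC animals. Ranges overlapped here too, with a log2 fold change of 0.14, a standard error of 0.0650, an unadjusted p of 0.0411 and an adjusted p of 0.737. In F1 its means were 30.5 ± 3.46 and 30.6 ± 2.83 CPM, and in F3 30.2 ± 5.00 and 29.9 ± 3.32 CPM, with log2 fold changes of -0.00145 and -0.00779 that changed sign in several of the alternative analyses. SREBF2 had log2 fold changes of -0.07 ± 0.0555 (SE), 0.03 ± 0.0434 and 0.02 ± 0.0524 in F1, F2 and F3, with adjusted p-values of 0.514, 0.912 and 0.854. Its group means ran from 282 CPM in F1 sGC animals to 296 CPM in F1 controls, with SDs of 14.8 to 26.6 CPM.

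**Figure D2:**
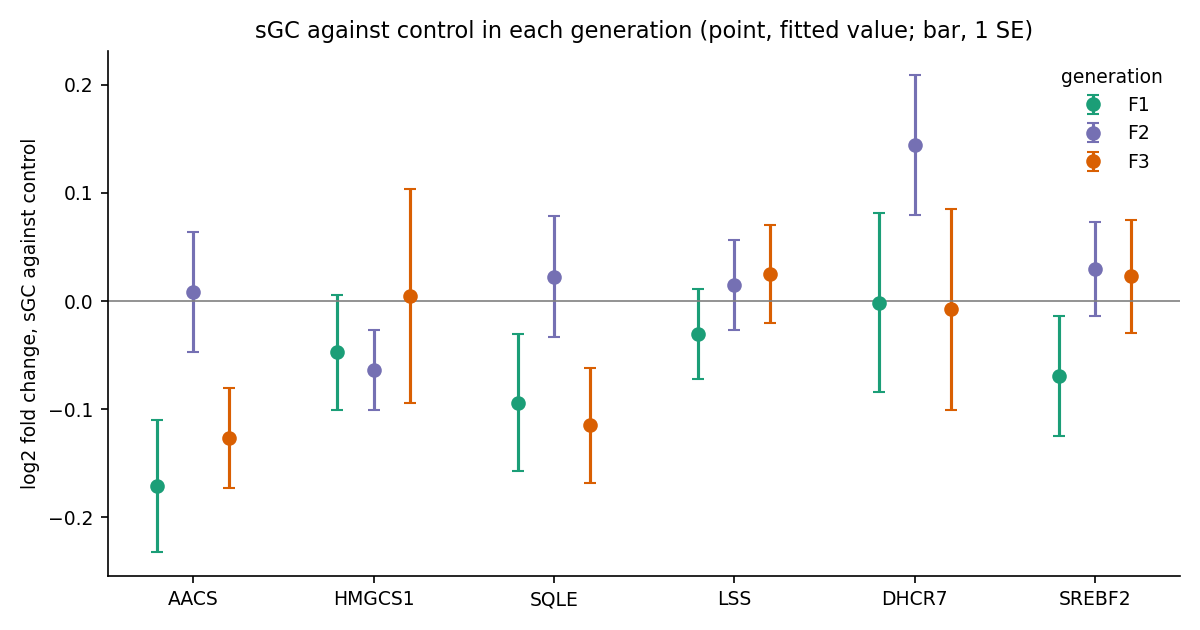
Fitted log2 fold change of sGC against control (vertical axis) for each of the 6 genes (horizontal axis) in F1, F2 and F3 (colours), with bars of 1 standard error. AACS lies at -0.17 in F1 and -0.13 in F3 and near 0 in F2, and no point passed the adjusted threshold.

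The rest of the pathway was read from gene lists. Of 15 other cholesterol synthesis enzymes tested, 0 passed in F1, F2 or F3 by edgeR's quasi-likelihood test, the likelihood ratio test or DESeq2. At an unadjusted p under 0.05 there were 3, 0 and 0 of them, and 3 of 15 in F1 is close to the 19.6% of all genes. Their median log2 fold changes were -0.07 in F1, 0.00445 in F2 and -0.02 in F3, with 10, 7 and 10 of 15 below 0. FDFT1, which makes squalene, had the largest change of this list summed over generations without regard to sign, with log2 fold changes of -0.18, 0.04 and -0.12 and adjusted p-values of 0.181, 0.931 and 0.238. It passed in F1 in one alternative, with sGC replicate 4 and control replicate 1 left out together (log2 fold change -0.25, adjusted p = 0.0496), which was chosen after the data had been seen.

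Lists around the pathway gave 2 genes past the threshold by the quasi-likelihood test, both in F3, where 5.04% of all genes passed. APOE, the main lipoprotein of the brain and a product of astrocytes, rose in F3, from 2316 ± 43.5 CPM in controls to 2621 ± 127.9 CPM in sGC animals (SD, n = 6 and 7). The F3 groups did not overlap, as controls reached 2376 CPM and sGC animals began at 2483 CPM, and the log2 fold change was 0.18 with an adjusted p of 0.00801. Its log2 fold changes in F1 and F2 were 0.08 and 0.11, with adjusted p-values of 0.708 and 0.678. With all 36 libraries in one fit the F3 call was lost (log2 fold change 0.18, adjusted p = 0.0840). APOE is itself made mostly by astrocytes, whose markers were higher in the same F3 sGC animals, as given above. Their part in the APOE values was not tested, and more cells and more RNA per cell cannot be told apart. APOE was the single gene that passed by the quasi-likelihood test of 19, 18 and 19 genes of sterol uptake, efflux and turnover tested in F1, F2 and F3, while the likelihood ratio test and DESeq2 also passed LRP8 in F1 and ABCG4 in F3.

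ACSL3, which activates long-chain fatty acids, fell in F3, from 223 ± 6.77 CPM in controls (213.8 to 234 CPM) to 201 ± 8.11 CPM in sGC animals (190.2 to 216 CPM). Its log2 fold change was -0.15 with an adjusted p of 0.0167, and without the libraries numbered 32 to 36 it no longer passed (log2 fold change -0.14, adjusted p = 0.0580). It was the only one to pass of 8 genes of fatty acid synthesis and desaturation tested in each generation. Among genes of SREBP control and sterol sensing (10, 11 and 10 tested in F1, F2 and F3) 0 passed, and SREBF1, which encodes the sister factor SREBP1 and drives fatty acid genes, had the largest summed change, with log2 fold changes of 0.08, 0.25 and 0.22 and adjusted p-values of 0.787, 0.678 and 0.116. None of 7 acetoacetate and ketone body enzymes passed, where BDH2 had log2 fold changes of -0.16, 0.21 and 0.10, and none of 10 mevalonate branch enzymes did, where PGGT1B, a subunit of a protein prenyltransferase, had 0.20, -0.03 and -0.02. By edgeR's quasi-likelihood test at an unadjusted p under 0.05 the SREBP, ketone body and mevalonate branch lists held 2, 1 and 2 genes in F1, 2, 0 and 1 in F2, and 2, 0 and 0 in F3, of 10, 7 and 10 tested (11, 7 and 10 in F2), beside the 19.6%, 6.64% and 21.1% of all genes. The likelihood ratio test and DESeq2 passed 0 in these lists. With 1 library left out, the log2 fold change of BDH2 ran in F1 from -0.35 (without sGC replicate 4) to -0.06 (without sGC replicate 3) and in F3 from 0.04 (without sGC replicate 2) to 0.16 (without control replicate 5), and in F1 it was -0.44 without libraries 32 to 36.

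Marker lists of other cell types were tested in the same fits, where 2.08%, 0% and 5.04% of all genes passed in F1, F2 and F3. In F1, 2 of 8 meningeal fibroblast markers were lower and 1 of 3 thalamic markers higher in sGC animals. In F3, 3 of 9 astrocyte markers were higher, 2 of 5 interneuron markers lower and 1 of 3 thalamic markers higher. No marker passed in F2, and none passed in any generation in the lists for hippocampal neurons, oligodendrocytes and myelin, oligodendrocyte precursors, microglia, endothelium, choroid plexus and striatal neurons by edgeR's quasi-likelihood test. Of 5 listed choroid plexus markers, however, only 1 was tested in F1, 3 in F2 and 1 in F3. The F1 marker had a log2 fold change of -0.51 (adjusted p = 0.181 by edgeR). The likelihood ratio test and DESeq2 passed more astrocyte markers (1 in F1 and 5 in F3 by each) and more meningeal fibroblast markers in F1 (6 and 3), as well as CAMK2A and SST in F1 and P2RY12 in F3, none in F2, and DESeq2 did not pass the thalamic marker LEF1 in F3. At an unadjusted p under 0.05 the quasi-likelihood test held all 8 meningeal fibroblast and 6 of 9 astrocyte markers in F1. In F3 it held 2 of 8 and 8 of 9 of them, beside 19.6% of all genes in F1 and 21.1% in F3. Other lists had such markers too, with 3 of 6 for microglia, 2 of 5 for endothelium and 2 of 5 for interneurons in F1. In F3 these were 1 of 6, 0 of 5 and 3 of 5. Of 11 listed markers of oligodendrocytes and myelin, the cells with the largest need for cholesterol, 9 were in all tables, with a summed level of 1722 to 2841 CPM that overlapped between control and sGC in each generation. Some defining markers, MBP among them, were not analysed here.

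The next comparison set the control animals of the 3 generations side by side. HMGCS1 was higher in F2 controls, at 644 ± 35.4 CPM (SD, n = 6), than in F1 controls, at 555 ± 30.2 CPM, and the ranges did not overlap. The log2 difference was 0.21 with a standard error of 0.0775 and an adjusted p of 0.0228. From F2 to F3 controls it was -0.22 (SE 0.0776, adjusted p = 0.0264), with F3 controls at 555 ± 107 CPM, and without F3 control replicate 1 it was -0.13. AACS took the opposite course, lower in F2 controls by -0.21 on the log2 scale (SE 0.0564, adjusted p = 0.00284) and 0.14 higher again in F3 (SE 0.0566, adjusted p = 0.0449). Thus 2 of the 6 genes passed in each of these comparisons, where 44.9% of all genes did from F1 to F2 and 38% from F2 to F3. Between F1 and F3 controls 0 of the 6 passed by edgeR's quasi-likelihood test, the likelihood ratio test or DESeq2. The log2 differences were -0.06 to -0.000626, 0 of 6 had an unadjusted p under 0.05, and 0.0176% of all genes passed.

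These differences were not equally firm. AACS between F1 and F2 passed in every one of 42 alternative fits, with adjusted p-values of 0.000498 to 0.0122. HMGCS1 between F1 and F2 lost the threshold when F1 control replicate 1 (adjusted p = 0.0515) or F2 control replicate 3 (0.0535) was left out. From F2 to F3 HMGCS1 lost it without F2 control replicate 3 (0.0606) or 4 (0.0541) and without F3 control replicate 1 (0.108), 3 (0.0662) or 6 (0.0551). AACS from F2 to F3 lost it without F2 control replicate 1 (0.0579), 2 (0.128), 3 (0.0701) or 4 (0.112), F3 control replicate 1 (0.0537), 2 (0.0901) or 5 (0.145), or F3 sGC replicate 2 (0.0518). DHCR7 passed from F1 to F2 only without F1 control replicate 1 (log2 difference -0.23, adjusted p = 0.0331), and LSS from F2 to F3 only without F3 control replicate 5 (log2 difference -0.11, adjusted p = 0.0457). Generation and the counting of a separate table for each generation cannot be told apart in these data.

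The other enzymes of the pathway were compared in the same fits. Of 15 enzymes, 3 passed from F1 to F2 controls, beside 44.9% of all genes, and MVD (log2 difference -0.23), TM7SF2 (-0.21) and EBP (-1.95) were all lower. From F2 to F3 controls 5 passed, beside 38% of all genes, MVD at 0.17, TM7SF2 at 0.11, EBP at 1.98, MVK at 0.27 and SC5D at -0.16. EBP and MVD passed in all 42 alternative fits of both comparisons. From F2 to F3 MVK, TM7SF2 and SC5D each lost the threshold without 1 or more of F2 control replicates 2, 3, 4 and 6 and F3 control replicates 1, 2, 3 and 5 (adjusted p = 0.05001 to 0.0924). EBP, the sterol isomerase, was singled out after its values had been seen: it held 36.8 ± 2.32 CPM in F1 controls, 9.51 ± 1.05 CPM in F2 controls and 37.4 ± 1.97 CPM in F3 controls (SD, n = 6 each), and the same step was present in sGC animals, at 36.8, 9.38 and 36.3 CPM. No F2 library reached the lowest value of F1 or F3 for EBP, and its log2 difference was the largest of the 15. The 6 genes themselves moved by at most 0.22 on the log2 scale between control groups.

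**Figure D3:**
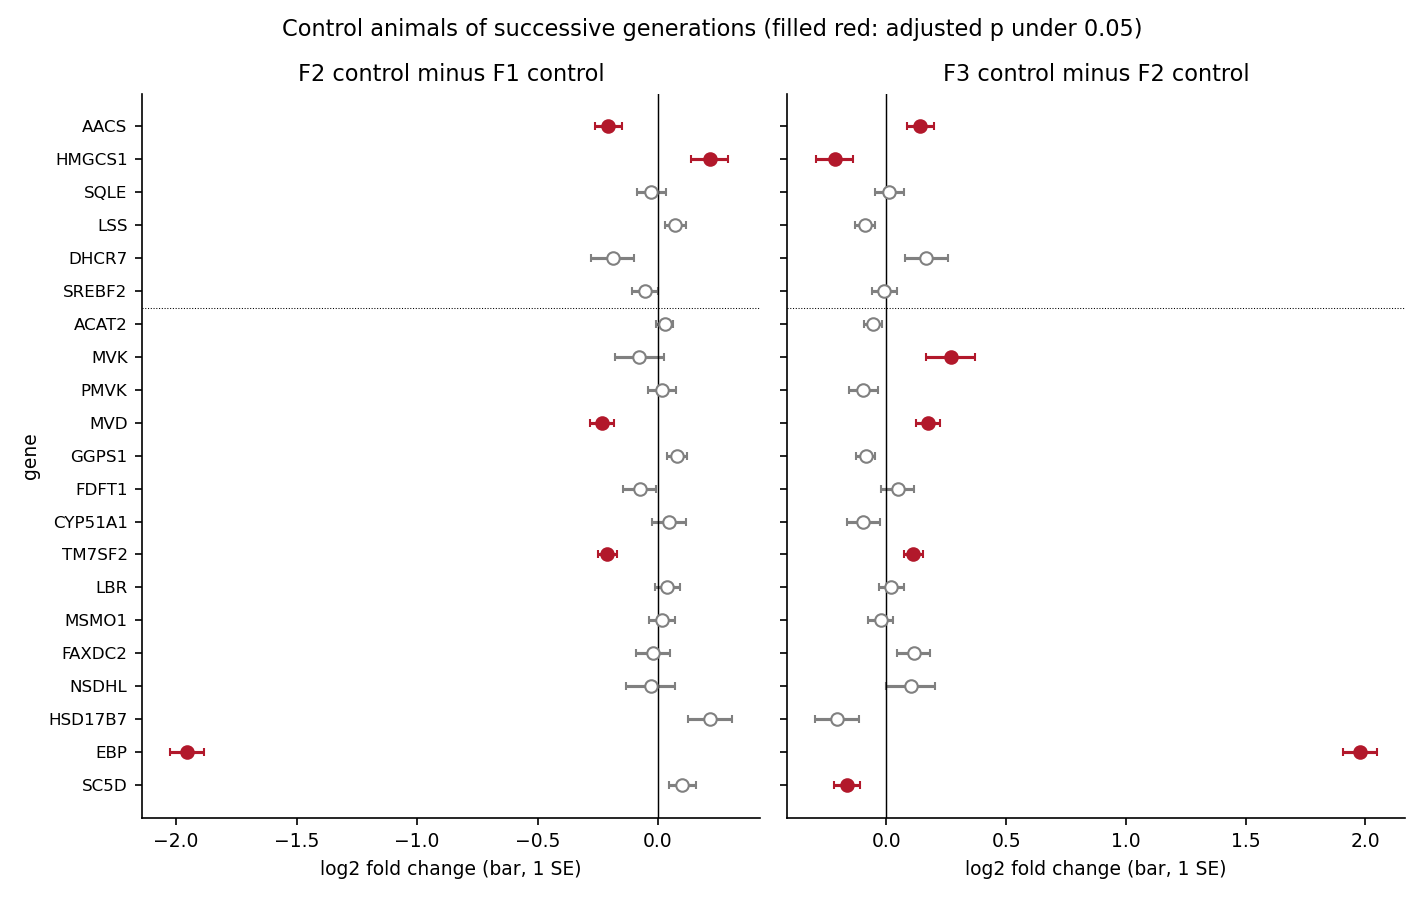
Log2 difference between control animals of successive generations (horizontal axis, bars of 1 standard error) for the 6 genes (above the dotted line) and 15 other cholesterol synthesis enzymes (below), F2 minus F1 on the left and F3 minus F2 on the right. Filled red points have an adjusted p under 0.05, and EBP alone lies near -1.95 and 1.98.

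Over all 6 groups, mean HMGCS1 was highest in F2 controls and F2 sGC animals (644 and 616 CPM), ahead of F3 sGC animals, F1 controls, F3 controls and F1 sGC animals at 556, 555, 555 and 538 CPM. The 2 F2 groups did not pass against each other (unadjusted p = 0.105, adjusted p = 0.773 by edgeR). Nor did the F1 and F3 controls (log2 difference -0.000626, unadjusted p = 0.994 by edgeR). AACS was highest in F1 and F3 controls, at 80.6 and 77.1 CPM, which did not pass against each other (unadjusted p = 0.258, adjusted p = 0.846 by edgeR). The F1 sGC, F3 sGC, F2 sGC and F2 control groups followed at 71.7, 70.5, 70.3 and 69.9 CPM, and sGC groups were not tested against each other across generations.

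Whether the sGC effect differed between generations was tested as an interaction over all 36 libraries. Of the 6 genes 0 passed in any of the 3 contrasts by edgeR's quasi-likelihood test, the likelihood ratio test or DESeq2, where by the first 0.299% of all genes passed for F2 minus F1, 0% for F3 minus F1 and 0% for F3 minus F2. For the last 2 contrasts 1471 and 1026 of all genes had an unadjusted p under 0.05, the likelihood ratio test passed 56 and 0, and DESeq2 64 and 0. AACS came nearest, with an effect in F2 that was 0.18 above that in F1 on the log2 scale (SE 0.0820, unadjusted p = 0.0380, adjusted p = 0.266), and it was the 1 of 6 genes at an unadjusted p under 0.05 for F2 minus F1, against 0 and 0 for the other contrasts. Its effect in F3 exceeded that in F1 by 0.04 (adjusted p = 0.879) and fell below that in F2 by -0.14 (adjusted p = 0.619). Adjusted p-values of the 6 genes were 0.619 or more in both contrasts with F3.

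The variation among animals within groups was examined next. Levels were taken as log2 CPM, the mean of each generation and treatment group was subtracted, and the 6 genes were correlated over 36 libraries. Of 15 pairs of genes, 10 passed the adjusted threshold by Pearson's r and 8 by Spearman's rho, in a two-sided permutation test within groups with Benjamini-Hochberg adjustment over the 15 pairs. Pairs of other genes were not put through this test. The share that would pass over all genes is therefore not known, and these counts cannot be called particular to the 6 genes. Values of r ran from -0.0404 to 0.730 with a median of 0.475. SQLE and SREBF2 had the highest, with r = 0.730 (permutation p = 3e-05, adjusted p = 0.00045) and rho = 0.696 (permutation p = 4e-05, adjusted p = 6e-04). Leaving out the 2 libraries farthest from the median SQLE level gave r = 0.745, and within F1, F2 and F3 the values were 0.639, 0.873 and 0.7102. Among 11158 genes ranked by their r with SREBF2, SQLE was at place 1, and SREBF2 was at place 2 for SQLE.

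DHCR7 passed with each of the other 5 genes over the 36 libraries, although its pair with AACS did not pass with the replicate block (r = 0.349, adjusted p = 0.0579) or in F1 and F3 alone (r = 0.334, adjusted p = 0.136). With SREBF2 it had r = 0.630 (permutation p = 4e-04, adjusted p = 0.003) and rho = 0.605 (permutation p = 0.00051, adjusted p = 0.00383). With HMGCS1 it had r = 0.622 (permutation p = 0.00104, adjusted p = 0.0039) and rho = 0.522 (permutation p = 0.00418, adjusted p = 0.0157). With SQLE the values were r = 0.5678 (permutation p = 0.00084, adjusted p = 0.0039) and rho = 0.541 (permutation p = 0.00166, adjusted p = 0.0083). Thus the last enzyme of the pathway moved with its regulator gene and with an early and a middle enzyme. With LSS the values were r = 0.560 (permutation p = 0.00176, adjusted p = 0.00528) and rho = 0.441 (permutation p = 0.0126, adjusted p = 0.0236). With AACS they were r = 0.406 (permutation p = 0.0164, adjusted p = 0.0274) and rho = 0.462 (permutation p = 0.00821, adjusted p = 0.0205). Without the 2 libraries farthest from the median of the first gene of each pair these 5 r were 0.534, 0.459, 0.542, 0.471 and 0.427. Among 11158 genes, SREBF2, HMGCS1, SQLE and LSS held places 12, 14, 32 and 35 by their r with DHCR7, and AACS place 250.

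AACS passed with DHCR7 and SREBF2 and with none of the other 3 genes. Among 11158 genes ranked by their r with AACS, however, SREBF2 was only at place 537 and DHCR7 at place 908. With SREBF2 it had r = 0.489 (permutation p = 0.00464, adjusted p = 0.00994) and rho = 0.485 (permutation p = 0.00546, adjusted p = 0.0164). With HMGCS1 it had r = -0.0404 (permutation p = 0.815, adjusted p = 0.815) and rho = -0.109 (permutation p = 0.548, adjusted p = 0.588), and HMGCS1 held place 5848 of 11158 in its ranking. AACS with SQLE had r = 0.372 (permutation p = 0.0428, adjusted p = 0.0584) and rho = 0.351 (permutation p = 0.0502, adjusted p = 0.0836). Neither of these pairs passed, and nor did AACS with LSS, at r = 0.223 (permutation p = 0.203, adjusted p = 0.217) and rho = 0.205 (permutation p = 0.258, adjusted p = 0.298). Without the 2 libraries at the extremes of AACS, F1 sGC replicate 4 and F2 sGC replicate 6, r was 0.456 with SREBF2, 0.0281 with HMGCS1, 0.228 with SQLE and 0.371 with LSS. The genes nearest to AACS were UBA1 (r = 0.9005), PKM (0.848), TKT (0.840), ACLY (0.837) and CLSTN1 (0.834), among them enzymes of glycolysis, the pentose phosphate path and acetyl-CoA supply. The genes nearest to HMGCS1 began with NSDHL (r = 0.801) and CYP51A1 (0.790), which are enzymes of the same pathway.

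Pairs with HMGCS1 rested in part on 2 animals. With SQLE it had r = 0.499 (permutation p = 0.00279, adjusted p = 0.00698) and rho = 0.444 (permutation p = 0.0106, adjusted p = 0.0227). With LSS the values were r = 0.475 (permutation p = 0.0186, adjusted p = 0.0278) and rho = 0.238 (permutation p = 0.192, adjusted p = 0.239). With SREBF2 they were r = 0.422 (permutation p = 0.0535, adjusted p = 0.0669) and rho = 0.342 (permutation p = 0.0661, adjusted p = 0.0991). Leaving out the 2 libraries farthest from the median HMGCS1 level, F3 control replicates 1 and 5, changed r to 0.319 with SQLE, 0.170 with LSS and 0.127 with SREBF2, so that the relation with LSS rested on those animals. LSS with SREBF2 passed by r = 0.458 (permutation p = 0.0149, adjusted p = 0.0274, 0.334 without its 2 extreme libraries) but not by rho = 0.278 (permutation p = 0.128, adjusted p = 0.174). SQLE with LSS passed by neither, at r = 0.264 (permutation p = 0.160, adjusted p = 0.185) and rho = 0.0736 (permutation p = 0.691, adjusted p = 0.691), and r was 0.160 without 2 libraries. With group means taken anew without those F3 controls, an analysis chosen after the data had been seen, 5 of 15 pairs passed, the median r was 0.339, and SQLE with SREBF2 still had the highest r, 0.674. The 5 pairs that no longer passed were AACS with DHCR7 and with SREBF2, HMGCS1 with SQLE and with LSS, and LSS with SREBF2.

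By generation, the median r of the 15 pairs was 0.326 in F1 (11 libraries), 0.335 in F2 (12) and 0.591 in F3 (13). By Pearson's r 0, 1 and 5 pairs passed in F1, F2 and F3, and by Spearman's rho 0, 0 and 1, while 2, 3 and 8 had an unadjusted Pearson p under 0.05. In control animals alone, 11 of 15 pairs passed in 18 libraries, with a median r of 0.684. Both the F3 and the control set include F3 control replicates 1 and 5, without which 5 of 15 pairs passed over 34 libraries (median r 0.339). Neither set was correlated again without them. Library size, as the log2 total, had r of 0.0927 (AACS) to 0.388 (SQLE). The mean log2 level of the oligodendrocyte and myelin markers had r of 0.0186 (AACS) to 0.547 (HMGCS1), and that of the microglia markers -0.478 (SQLE) to 0.0125 (LSS). These values describe the libraries, and their part in the correlations was not tested.

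In some animals most of the genes deviated to the same side. F3 control replicate 5 had the highest level of its group for all 6 genes, with HMGCS1 0.37 and DHCR7 0.35 above the group mean on the log2 scale, and 12 of 15 other enzymes above it. In F3 control replicate 1 all 6 genes were below the group mean and 5 were the lowest, with HMGCS1 at -0.48, and 10 of 15 other enzymes were below. F3 sGC replicate 6 had all 6 genes above its group mean and 14 of 15 other enzymes above, and F2 sGC replicate 3 had 5 of 6 above. F1 control replicate 1 had all 6 below and replicate 2 all 6 above the mean. Such animals were found in both control and sGC groups. Others showed no such pattern: F1 control replicate 3 had 4 of 6 genes below but 12 of 15 other enzymes above its group mean, F3 sGC replicate 1 had 5 of 6 below but 10 of 15 above, and F1 sGC replicate 3 had 3 of 6 above and 12 of 15 below.

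**Figure D4:**
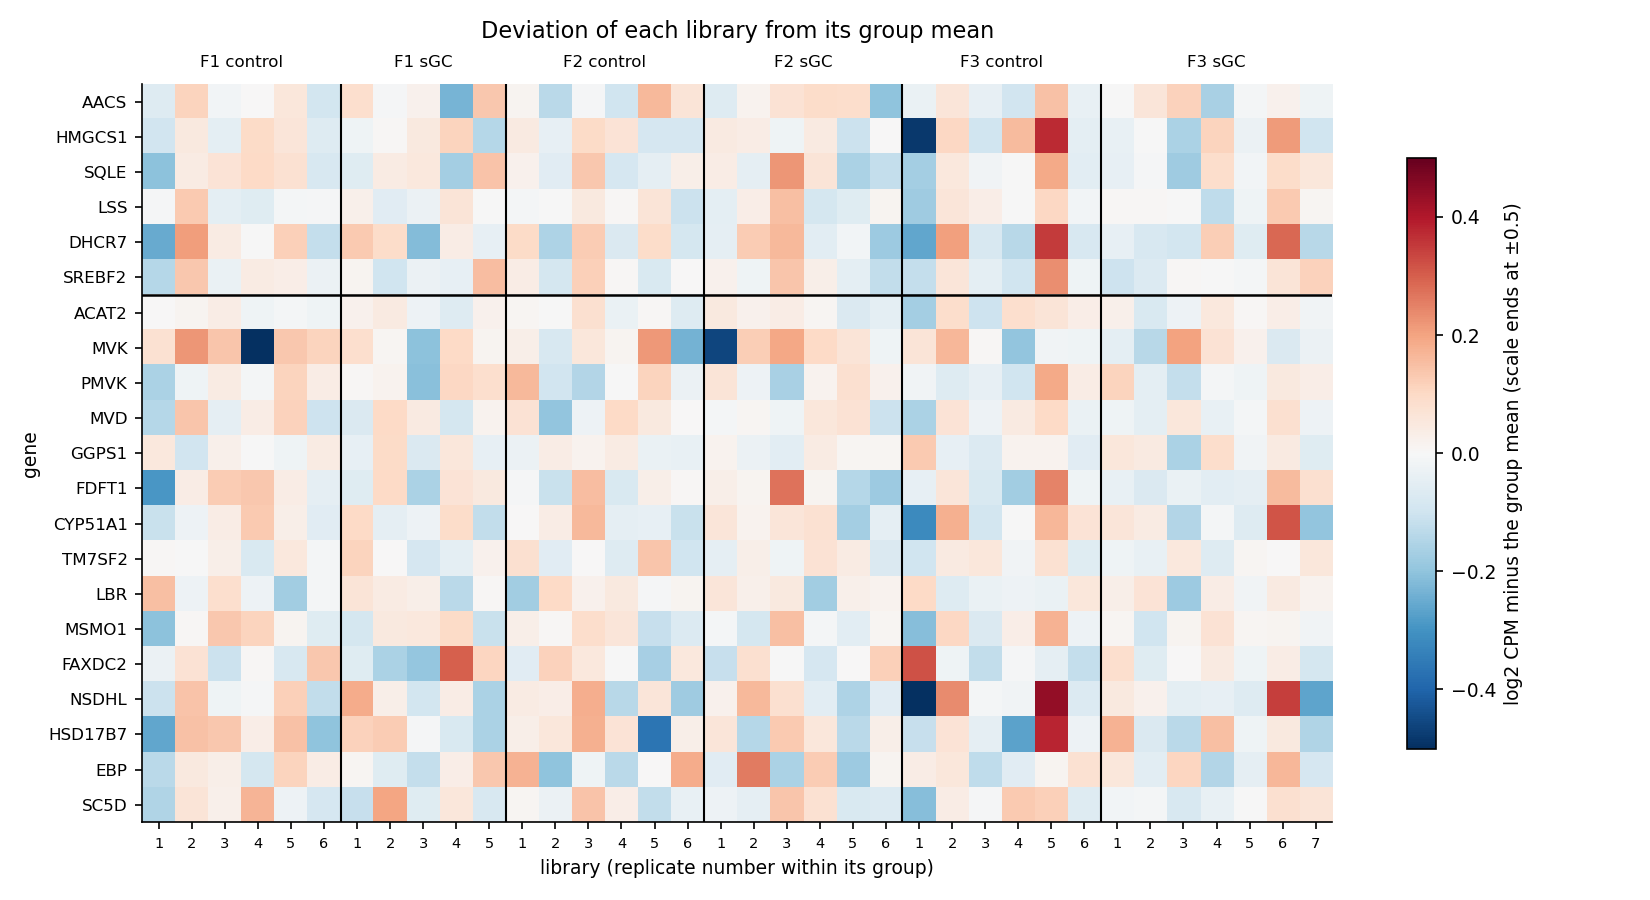
Deviation of log2 CPM from the group mean (colour, red higher and blue lower, scale ends at ±0.5) for the 6 genes (above the line) and 15 other cholesterol synthesis enzymes (rows) in 36 libraries (columns, by group). F3 control replicate 5 and F3 sGC replicate 6 are red and F3 control replicate 1 is blue along most rows, including NSDHL and CYP51A1.

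Genes outside the 6 were ranked by their median r with the 6 genes over 36 libraries, as a description without a test. Of 11153 genes ranked, 90% lay between -0.279 and 0.276, and the median was -0.0079. The nearest included PCYT2 (0.622), which makes a precursor of phosphatidylethanolamine, and NSDHL (0.577) and FDFT1 (0.546), enzymes of cholesterol synthesis. ELOVL6 (0.557), which lengthens fatty acids, ABCF1 (0.538), INSIG1 (0.534), the protein that holds SREBP in the membrane when sterols are plentiful, and ACLY (0.531), which supplies acetyl-CoA, were also among the first 10. Of the 15 other enzymes, 8 were within the first 50 places and their median was 0.461, while GGPS1 (-0.261), LBR (-0.224) and FAXDC2 (-0.181) lay on the other side. GGPS1 was kept in this list although it serves the mevalonate branch rather than the path to sterols.

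The lists around the pathway were lower in this ranking over all 36 libraries. The first 50 places held 2 of 8 fatty acid genes, 1 of 18 genes of sterol uptake, efflux and turnover, 1 of 10 genes of SREBP control, 1 of 7 ketone body enzymes and 0 of 10 mevalonate branch enzymes. Their medians were 0.192, -0.0687, 0.0771, 0.201 and -0.0486. LIPA, the lysosomal lipase that frees cholesterol from incoming esters, stood at the far end, at -0.449 and place 11137. No marker of any cell type was within the first 50, and the list medians ran from -0.185 for endothelium to 0.177 for oligodendrocyte precursors. Without F3 control replicates 1 and 5, FDFT1 had place 2 (0.507), but INSIG1 fell to place 67, and 2 of the 15 other enzymes were within the first 50. The fatty acid list kept 2 of 8 there and the ketone body list 1 of 7. Lists of SREBP control, of sterol uptake, efflux and turnover and of the mevalonate branch held 0. By these counts the other enzymes no longer stood above the fatty acid list, but the counts depend on the cut at 50 places. MVD, CYP51A1, SC5D, HSD17B7, ACAT2 and MSMO1 lay past it, with median r of 0.319 to 0.354. Apart from ELOVL6 and FASN, the fatty acid genes lay lower than these, at 0.266 (SCD5) or less. The remaining enzymes lay at 0.191 (TM7SF2) or less.

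**Figure D5:**
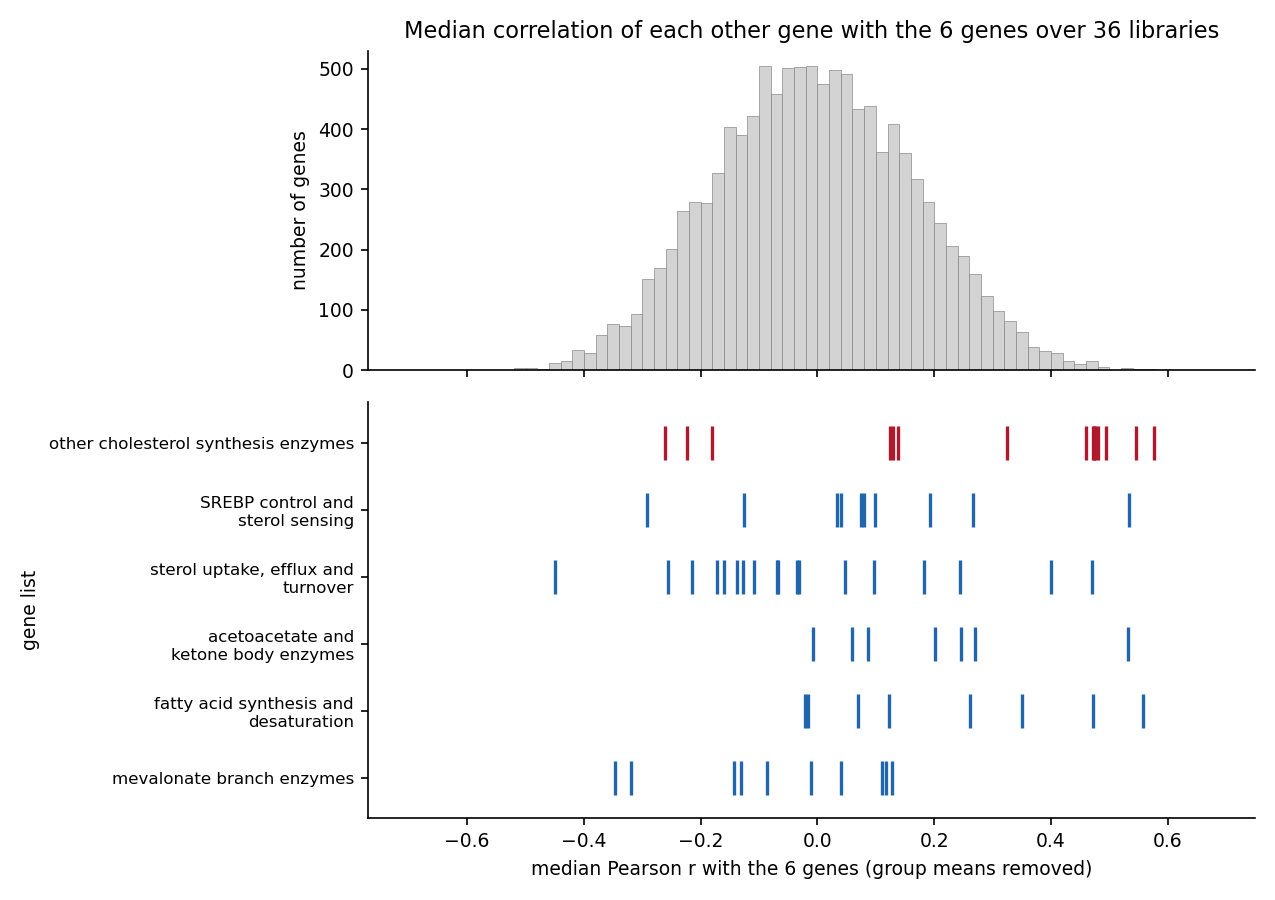
Median Pearson r of each other gene with the 6 genes over 36 libraries, after removal of group means (horizontal axis), as a histogram of 11153 genes (top, vertical axis the number of genes) and as ticks for the members of 6 gene lists (bottom). Of the other cholesterol synthesis enzymes (red), 8 of 15 lie between 0.461 and 0.577 (NSDHL), while the remaining lists (blue) spread across it.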

How the data were processed

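RNA-seq of hippocampus (1 × 51 bp reads) gave the counts that the authors deposited, unnormalized, in one table per generation. The submitters' processing notes name TopHat2; the counter and the genome build for RNA are not given in the sources used here. Columns of the authors' own comparisons, and the methylation files, which hold such comparisons alone, were not used. Genes, lists and tests were chosen with earlier results of these data known. Groups came from the sample labels. Counts were filtered with filterByExpr, scaled by TMM and fitted within each generation with edgeR 4.0.16 (quasi-likelihood, R 4.3.3), with Benjamini-Hochberg adjustment over all genes. Control and interaction contrasts used one fit of 36 libraries over genes shared by the tables, leaving out symbols found more than once in a table. Correlations used log2 CPM (prior count 2) and 100000 within-group permutations. With IDI1 not analysed here, 15 pairs of genes were tested. The scripts were tested on simulated data. Alternatives were the likelihood ratio test, DESeq2 1.42.0, RLE scaling, no filter, a replicate block and left-out libraries. Named list genes passed in an sGC comparison or had the largest summed change of their list, and genes were named from the 10 most alike. Some genes of the lists, and of the 10, are not reported here. Figures were drawn with matplotlib 3.10.9.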

Additional observations from a re-analysis of the deposited data

Results flagged for a closer look

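LSS in F1 control replicate 2 was 101.5 CPM, where the next highest F1 control held 92.2 CPM. The gap was 0.725 of the group's range, over Dixon's critical value at the 95% level for 6 samples. Among 36 combinations of gene and group this was the single one, where chance gives about 1 in 20.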

How the results depend on the processing

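None of the 6 genes passed for sGC against control in any of 19, 19 and 21 alternatives in F1, F2 and F3, nor in 42 for each interaction, and AACS kept its sign in F1 (-0.20 to -0.11) and F3 (-0.15 to -0.10). Several of the remaining log2 values changed sign, and the cause was not tested. Analyses that left out 2 named libraries together, or used F1 and F3 alone for correlations, were chosen after seeing the data. In F1, DHCR7 became 0.0042 with DESeq2, 0.0030 with RLE scaling, 0.0048 without a filter and 0.0051 without libraries 32 to 36, and SREBF1 became -0.0072 without those libraries and -0.0823 without sGC replicate 4 and control replicate 1. In F3, HMGCS1 became -0.0339 without libraries 32 to 36 and -0.0063 without control replicates 1 and 5, and DHCR7 0.0228 without those controls.

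With each library left out in turn, F1 values ran from -0.0450 to 0.0512 for DHCR7 and -0.0016 to 0.17 for SREBF1. F2 values ran from -0.0177 to 0.0456 for AACS, -0.0242 to 0.0525 for SQLE, -0.0171 to 0.0331 for LSS, -0.0220 to 0.0714 for FDFT1 and -0.0702 to 0.00091 for PGGT1B. F3 values ran from -0.0785 to 0.0858 for HMGCS1, -0.0088 to 0.0464 for LSS, -0.0623 to 0.0706 for DHCR7, -0.0011 to 0.0733 for SREBF2 and -0.0574 to 0.0117 for PGGT1B. From F2 to F3 controls SQLE ran from -0.0317 to 0.0439 and SREBF2 from -0.0622 to 0.0166, and the AACS effect in F3 minus F1 from -0.0129 to 0.0731. Of the 6 genes, 1 to 2 passed from F1 to F2 controls and 0 to 2 from F2 to F3.

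Of 15 pairs, 10 passed as reported and 5 without F3 control replicates 1 and 5. The r of AACS and HMGCS1 became 0.0677 without libraries 32 to 36, 0.275 in controls and 0.0359 in F1 and F3 alone.

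Control and sGC animals with the same replicate number deviated together (r over 0.1) in 2 of 5 pairs in F1, 1 of 6 in F2 and 0 of 6 in F3, and in 1, 0 and 0 of these pairs the control library correlated best with the sGC library of its own number, so the numbers were not taken as pairing. With the replicate block 0 of the 6 genes passed for sGC, 10 of 15 pairs did (AACS with DHCR7 no longer, HMGCS1 with SREBF2 instead, adjusted p = 0.0579 and 0.00807), and F3 values of DHCR7 and PGGT1B became 0.0186 and 0.0076 and the r of AACS and HMGCS1 0.0599. Over all genes 0.598%, 0% and 1.51% passed with the block in F1, F2 and F3, against 2.08%, 0% and 5.04% without it.

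Other settings moved the all-gene counts too: in F1 to 598 (likelihood ratio test), 652 (DESeq2), 851 (all 36 libraries in one fit), 97 (without libraries 32 to 36) and 151 (without sGC replicate 4 and control replicate 1), in F3 to 944 (DESeq2), 317 (without libraries 32 to 36) and 304 (without control replicates 1 and 5). With 1 library left out they ran from 56 (F1 sGC replicate 5) to 342 (F1 sGC replicate 4) in F1 and from 288 (F3 sGC replicate 5) to 639 (F3 sGC replicate 6) in F3. For the interaction F3 minus F1, 431 genes passed without libraries 32 to 36 and 455 without F1 sGC replicate 4 alone where 0 had passed, and for F2 minus F1 the count of 34 became 165, 273 and 68 with the likelihood ratio test, with DESeq2 and without those libraries, and with 1 library left out it ran from 0 (F2 control replicate 2 or F2 sGC replicate 4) to 219 (F2 sGC replicate 6). Between F1 and F3 controls 9 and 8 genes passed with those tools where 2 had. With 5 to 7 animals a group, standard errors of the 6 genes for sGC against control within a generation were 0.0373 to 0.0987 on the log2 scale, while counting error was at most 5.25% of a value.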
